A study of Mus musculus with 8 samples.

Results

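Rab GTPases, SNARE proteins and the proteins that act directly on them were examined in sorted cells of the mouse intestinal crypt. The genes were all those with a probe set naming them alone and a symbol that begins with Rab, Vamp or Stx and a digit, begins with Stxbp, or is Snap23, Snap25, Snap29 or Snap47. This gave 103 genes out of the 18193 measured, each represented by its brightest probe set over the 6 EphB2 arrays. The symbol rule also took in regulators such as the Rab11 family interacting proteins, and 4 genes that are neither Rab GTPases nor SNAREs: Rab5if and the opposite-strand genes Rab10os, Rab11fip4os1 and Rab26os. By role, 15 members were placed with secretory granules and regulated exocytosis, 13 with apical and recycling endosome delivery, and 14 with other plasma membrane fusion and junctions. A further 22 were placed with the endoplasmic reticulum and Golgi, 24 with endosomes and lysosomes, and 15 with regulators and less characterised genes. The role lists were chosen with earlier results of these data known, so shares called per role are descriptions and not independent support.

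C57BL/6 intestinal cells sorted into EphB2 and Lgr5 populations were hybridised to Affymetrix arrays. EphB2 High, EphB2 Medium and EphB2 Low cells had high, intermediate or low antibody staining for EphB2, a receptor tyrosine kinase that is most abundant at the crypt base, and each group held 2 arrays. Lgr5 High and Lgr5 Low cells were sorted by the fluorescence of an EGFP reporter knocked into Lgr5, the gene of a stem cell receptor for R-spondins, and each had 1 array. All cells were freed from intestine with EDTA, Dispase and DNase, with no further treatment recorded, and the labels used here give no age and do not say whether the EphB2 animals carried the reporter. Replicate 1 of each EphB2 group shared a first hybridization and replicate 2 a second. Nothing in the labels ties the replicates to different animals. The p-values given here rest on how much arrays varied within groups, pooled over the EphB2 groups and drawn towards the spread of all genes. That variation may be technical.

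Rab GTPases are molecular switches that mark the membranes of each organelle and recruit motors, tethers and fusion factors to transport vesicles. SNARE proteins on the vesicle (Vamp) and on the target membrane (syntaxin and Snap25 families) zip together to drive fusion, and Stxbp proteins of the Munc18 type assist syntaxins. In the gut, enteroendocrine, goblet and Paneth cells release stored granules by regulated exocytosis, while enterocytes deliver brush border proteins to the apical surface through Rab11 and Rab8 recycling endosomes and the apical syntaxin Stx3.

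Each array is a bulk population, in which fewer cells of a type and less RNA per cell cannot be told apart. Markers followed the labelled position along the crypt. All 8 stem cell markers were higher in EphB2 High than in EphB2 Low cells, and all 17 enterocyte markers were lower. The marker lists were chosen with earlier results of these data known, so they are no independent check of the labels. The medians of the lymphocyte, myeloid and stromal and endothelial marker lists lay between 4.09 and 5.08 on all 8 arrays, against a median of 7.92 over all genes (log2 signal). Their summed signal was 8.92 to 9.37 for lymphocyte, 10.41 to 12.55 for myeloid and 8.97 to 11.25 for stromal and endothelial markers. Single genes were bright, such as Lyz2 (9.58 to 12.27), Cd14 (7.70 to 10.10) and Vim (7.59 to 11.05). Lyz2, the brightest gene of the myeloid list, was also in the Paneth marker list. Of 12 markers in each list, 1 lymphocyte and 3 myeloid markers were higher and 2 lymphocyte and 1 myeloid marker were lower in EphB2 High than in Low cells. Lyz2 was among the myeloid markers that were higher. The part of these lists in the members' results was not tested. Values throughout are log2 signal, a scale on which 1 unit is a 2-fold change, and errors of differences are standard errors of the linear model (limma) with 2 arrays per group. A gene is called changed when its limma p-value, adjusted by Benjamini-Hochberg over all genes, is below 0.05.

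Between EphB2 High and EphB2 Low cells, most trafficking genes did not pass the test, and those that did were mostly lower in EphB2 High cells. Of the 103 members, 27 were lower in EphB2 High cells, against 15.3% of all genes, and 8 were higher, against 22.0% of all genes (37.3% in either direction). With hybridization as a block 30 were lower and 11 were higher: the 35 calls all remained, and Stxbp3, Rab8b, Rab33b, Stx11, Rab29 and Rab26 were added. The members' median difference was -0.13, and that of all genes was 0.01. Lower calls were more frequent among bright members. Of the 69 members above the median signal of all genes, 31.9% were lower and 7.25% higher. Of the 34 at or below it, 14.7% were lower and 8.82% higher. The same split of all genes is not given here, so it is not shown to be particular to the members. A difference of at least 2-fold was reached by 11 of the 27 lower members and by 4 of the 8 higher members. The 11 include Rab37, whose signal in EphB2 High cells is not shown to be above background. When each of the 6 arrays was left out in turn, 15 of the lower and 2 of the higher members stayed called every time. The 2 higher ones were Rab15 and Rab13. Leaving out EphB2 High replicate 2 cut the lower calls to 18 and the higher calls to 2, and leaving out EphB2 Low replicate 2 cut the lower calls to 18. Leaving out EphB2 Medium replicate 1 or replicate 2 gave 5 higher calls. The plot of called members shows every call with its error.

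**Figure D1:**
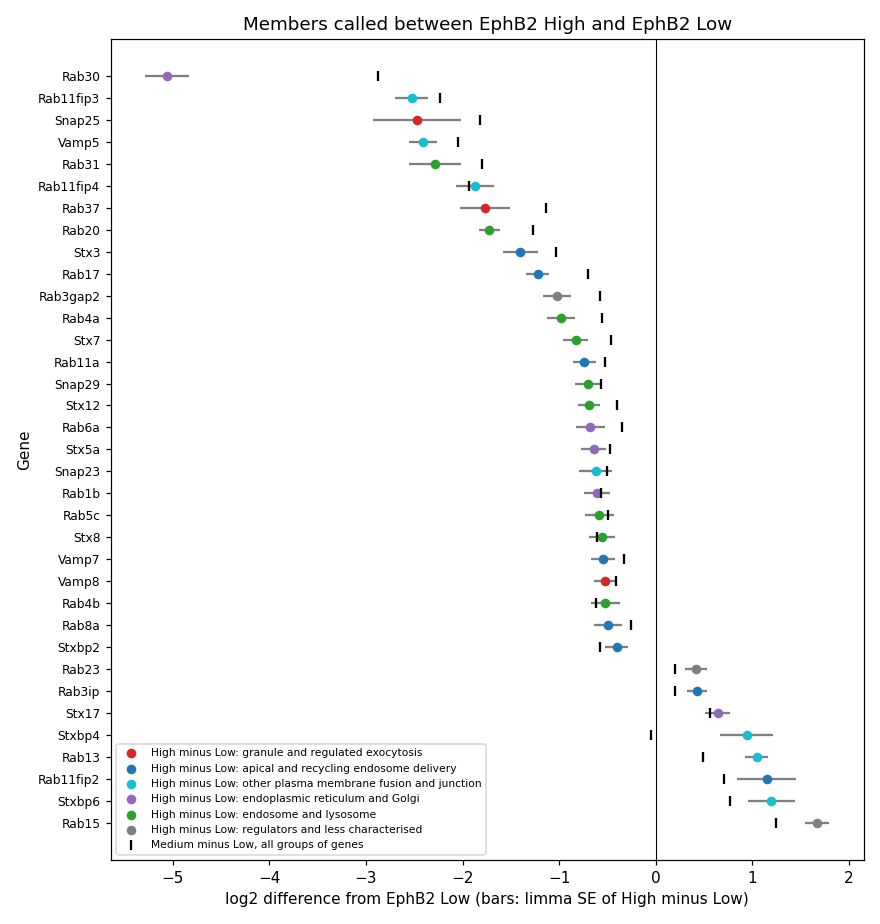
Differences of the called members between EphB2 High and EphB2 Low cells on the log2 scale. The horizontal axis is the log2 difference, High minus Low, with limma standard errors for 2 arrays per group, and ticks give Medium minus Low; 27 members lie left of 0 and 8 lie right of it, and Rab30 stands farthest out at -5.06.

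Among granule genes, Snap25, Rab37 and Vamp8 were lower in EphB2 High cells and the others did not pass the test. Of the 15 granule and regulated exocytosis members, 3 were lower, 0 were higher and 12 were not called, with 4 of the 15 below an unadjusted p of 0.05 and a median difference of -0.07. The share lower was 20.0%, near the 15.3% of all genes. Only Snap25 and Rab37 among the 15 read at least 2-fold different and passed the test, and the size for Rab37 is uncertain because of its low signal.

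Snap25, the target-membrane SNARE of neurons and endocrine cells, read 6.75 and 5.89 in EphB2 High cells, 7.50 and 6.45 in EphB2 Medium cells and 9.14 and 8.45 in EphB2 Low cells. Both EphB2 Low arrays stood above every other array, and in each EphB2 group the first hybridization read higher than the second. The difference was -2.47 ± 0.46 between EphB2 High and Low (5.55-fold lower; adjusted p = 0.0085), and a further Snap25 probe set gave -2.44. Rab37, a Rab found on secretory granules of mast cells, read 4.58 and 4.64 in EphB2 High cells, 5.07 and 5.42 in EphB2 Medium cells and 6.01 and 6.74 in EphB2 Low cells. Its 3 groups were in order with no overlap, and High was lower than Low by -1.77 ± 0.26 (adjusted p = 0.00381), or by -1.13 when its probe sets were averaged. The Rab37 readings in EphB2 High cells lay among the medians of the lymphocyte, myeloid and stromal marker lists, so the signal there is not shown to be above background and no fold is given. Vamp8, the vesicle SNARE of exocrine and mucin granule release that also serves late endosomes, was bright on all arrays at 12.06 and 12.01 in EphB2 High, 12.18 and 12.12 in Medium and 12.50 and 12.62 in Low cells. Its difference was small, -0.52 ± 0.11 (adjusted p = 0.0145), and the call was lost without EphB2 High replicate 1, EphB2 High replicate 2 or EphB2 Low replicate 2 (adjusted p up to 0.0834).

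Rab27a and Rab3c varied widely between arrays of one group and were not called. Rab27a, which docks granules and melanosomes at the plasma membrane, read 5.31 and 5.71 in EphB2 High cells, 8.91 and 6.12 in EphB2 Medium cells and 8.04 and 5.93 in EphB2 Low cells. The High minus Low difference was -2.74 in the first hybridization and -0.22 in the second, so that the mean of -1.48 ± 1.04 did not pass the test (adjusted p = 0.332). Rab3c, a Rab of regulated secretory vesicles, read 8.03 and 6.51 in EphB2 High, 8.50 and 6.96 in Medium and 8.34 and 7.48 in Low cells, with a difference of -0.64 ± 0.69 (adjusted p = 0.532). Within each group its first array was brighter by more than the groups differed. Rab3b, of the same family, gave -0.39 ± 0.41 (adjusted p = 0.514).

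The remaining granule members were not called between EphB2 High and Low cells. Rab27b, the close relative of Rab27a, read 10.71 and 10.94 in EphB2 High, 10.81 and 11.29 in Medium and 10.48 and 10.22 in Low cells, a difference of 0.47 ± 0.20 (adjusted p = 0.129). Stx1a, the plasma membrane syntaxin of neuroendocrine release, gave 0.56 ± 0.22 (adjusted p = 0.0981). The vesicle SNAREs Vamp2 and Vamp1 gave -0.22 ± 0.15 and 0.12 ± 0.14, the granule Rabs Rab3a, Rab3d and Rab26 gave -0.07 ± 0.14, 0.26 ± 0.33 and 0.41 ± 0.21, and the syntaxin-binding tomosyn Stxbp5 gave 0.08 ± 0.14. None of these passed the test, with adjusted p between 0.191 and 0.736, though Rab26 was called with hybridization as a block (adjusted p = 0.0457). With probe sets averaged Rab3d became 0.42 and Vamp2 -0.37, both called (adjusted p = 0.0496 and 0.0416), and Stxbp5 turned to -0.16 without a call. For the second tomosyn, Stxbp5l, the brightest probe set gave 0.12 ± 0.46 (adjusted p = 0.87) while 2 dimmer ones gave -1.63 and -1.02. Averaging its probe sets turned the direction and made the call, at -0.84 (adjusted p = 0.0327).

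Enteroendocrine markers moved in the same direction as Snap25. Over the 20 enteroendocrine markers measured, the median was 8.26 and 7.73 in EphB2 High cells, 9.31 and 8.58 in EphB2 Medium cells and 9.52 and 8.93 in EphB2 Low cells. Their summed signal on the log2 scale was 13.54 to 14.53 in EphB2 High, 14.18 to 15.18 in Medium and 15.04 to 15.51 in Low cells. Of the 20, 9 were lower and 1 was higher in EphB2 High than in Low cells. In each EphB2 group the first hybridization had the higher enteroendocrine median, as it had the higher Snap25, Rab3c and Rab27a value in all groups but EphB2 High for Rab27a. Chga, a granule protein of enteroendocrine cells, read 11.60 and 10.24 in EphB2 High, 11.86 and 10.31 in Medium and 12.12 and 11.58 in Low cells, so this cell type was represented on every array. Other secretory lineages moved differently: 5 of 11 goblet markers were lower and 3 higher in EphB2 High cells, 8 of 10 Paneth markers were higher, and 5 of 10 tuft markers were higher and 1 was lower. The part of these markers in the Snap25, Rab27a and Rab3c values was not tested.

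**Figure D2:**
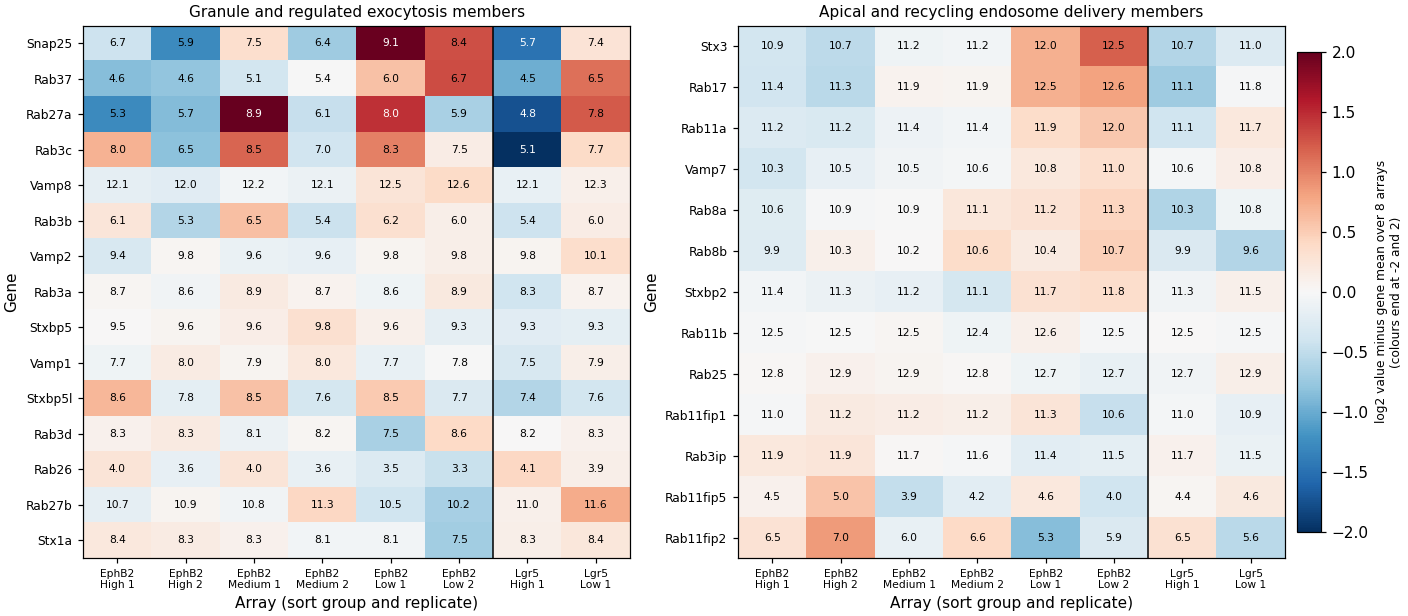
Log2 signal of the 15 granule members (left) and the 13 apical members (right) on the 8 arrays, with the value in each cell and colour giving the distance from the gene's mean. Red is above and blue below that mean: Snap25, Rab37, Stx3, Rab17 and Rab11a are red on both EphB2 Low arrays, and Rab27a differs between arrays of one group.

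Several core genes of apical delivery were lower in EphB2 High cells. Of the 13 apical and recycling endosome members, 6 were lower (46.2%, against 15.3% of all genes), 2 were higher (15.4%, against 22.0%) and 5 were not called, with a median difference of -0.40. The lower ones were Stx3, Rab17, Rab11a, Vamp7, Rab8a and Stxbp2, all above the median signal of all genes. The higher ones were Rab11fip2 and Rab3ip. Because the apical list was chosen with earlier results of these data known, its 46.2% is a description and not independent support.

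Stx3, the apical plasma membrane syntaxin of enterocytes, read 10.89 and 10.74 in EphB2 High cells, 11.17 and 11.20 in EphB2 Medium cells and 11.98 and 12.45 in EphB2 Low cells. The 3 groups were in order without overlap, and High was lower than Low by -1.40 ± 0.18 (2.64-fold; adjusted p = 0.00246). Its 3 further probe sets gave -1.02 to -1.23. Rab17, an epithelial Rab of apical recycling and transcytosis, read 11.44 and 11.28 in EphB2 High, 11.89 and 11.87 in Medium and 12.54 and 12.63 in Low cells. High, Medium and Low again did not overlap, and the difference of -1.22 ± 0.12 (2.34-fold lower; adjusted p = 0.00112) was repeated by a second probe set at -1.24. Rab11a, the Rab of the recycling endosome, read 11.21 and 11.18 in EphB2 High, 11.38 and 11.42 in Medium and 11.85 and 12.01 in Low cells, a difference of -0.74 ± 0.11 (adjusted p = 0.00465).

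Other apical members had smaller differences whose calls depended on single arrays. Vamp7, a vesicle SNARE of apical and lysosomal exocytosis, was lower by -0.54 ± 0.13 (adjusted p = 0.0186), and the call was lost without EphB2 High replicate 1 or EphB2 Low replicate 2 (adjusted p up to 0.102). Rab8a, which delivers vesicles to the apical membrane, was lower by -0.50 ± 0.15 (adjusted p = 0.0424). Stxbp2, the Munc18 partner of Stx3, was lower by -0.40 ± 0.12 (adjusted p = 0.0422). Rab8a and Stxbp2 both lost the call whichever of the 6 arrays was left out, with adjusted p up to 0.192 for Rab8a and 0.178 for Stxbp2, and Stxbp2 also lost it when probe sets were averaged (0.0528) or arrays were quantile normalized again (0.0598).

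Rab11fip2 and Rab3ip ran the other way. Rab11fip2, which links Rab11 vesicles to the motor Myo5b, read 6.47 and 7.03 in EphB2 High cells, 6.03 and 6.58 in EphB2 Medium cells and 5.32 and 5.89 in EphB2 Low cells. High lay above Low in both hybridizations, by 1.15 ± 0.30 (2.21-fold; adjusted p = 0.0295), or by 0.76 when its probe sets were averaged. Neither the fit without EphB2 High replicate 2 (adjusted p = 0.145) nor that without EphB2 Low replicate 1 (0.123) called it. Rab3ip, the exchange factor that switches Rab8 on and is also called Rabin8, read 11.86 and 11.88 in EphB2 High, 11.67 and 11.63 in Medium and 11.45 and 11.46 in Low cells. Its replicates lay close together, but the difference of 0.42 ± 0.10 (adjusted p = 0.0241) was not called in any fit on 5 of the arrays (adjusted p up to 0.116). The 5 uncalled apical members included relatives of called ones. Rab11b gave -0.06 ± 0.12 and Rab25, the epithelial Rab11 family member, gave 0.17 ± 0.11. Rab8b gave -0.41 ± 0.20 (called with hybridization as a block, adjusted p = 0.0278, but 0.13 in the other direction with probe sets averaged), Rab11fip1 gave 0.18 ± 0.24 (-0.33 with probe sets averaged) and Rab11fip5 gave 0.42 ± 0.26, with adjusted p of 0.18 to 0.612 for these 3.

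Enterocyte markers moved with the lower apical genes. Over 17 enterocyte markers the median was 10.33 and 10.32 in EphB2 High cells, 12.30 and 12.32 in EphB2 Medium cells and 13.57 and 13.64 in EphB2 Low cells. Their summed signal on the log2 scale was 15.67 to 15.72 in EphB2 High, 16.59 to 16.64 in Medium and 17.64 to 17.70 in Low cells. The part of these markers in the apical results was not tested.

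Among the other plasma membrane and junction genes, 4 of 14 were lower (28.6%) and 3 were higher (21.4%) in EphB2 High cells, with a median of -0.16. Rab11fip3 and Rab11fip4, Rab11 effectors that bring recycling endosomes to the cleavage furrow of dividing cells, were both lower. Both were listed here and not with apical and recycling endosome delivery, so the counts of that list leave them out. Rab11fip3 read 7.99 and 8.06 in EphB2 High cells, 8.29 and 8.35 in EphB2 Medium cells and 10.32 and 10.79 in EphB2 Low cells. Medium lay slightly above High and Low stood far apart, with a High minus Low difference of -2.53 ± 0.17 (5.77-fold lower; adjusted p = 0.000465). A dimmer probe set gave -0.41, and the average of both was -1.47 (adjusted p = 0.00399). Rab11fip4 read 6.68 and 6.60 in EphB2 High, 6.42 and 6.74 in Medium and 8.28 and 8.75 in Low cells, a difference of -1.87 ± 0.20 (3.67-fold lower; adjusted p = 0.00145). Its Medium arrays overlapped the High arrays, and one of 2 dimmer Rab11fip4 probe sets gave -0.02 and the other -2.34.

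Vamp5, a vesicle SNARE first described in muscle, had the smallest adjusted p among the plasma membrane genes. It read 6.26 and 6.34 in EphB2 High cells, 6.83 and 6.51 in EphB2 Medium cells and 8.65 and 8.78 in EphB2 Low cells. Low stood apart from both other groups, with High lower than Low by -2.41 ± 0.15 (5.32-fold, adjusted p = 0.000306). A dimmer Vamp5 probe set gave -1.52. Snap23, the widely expressed counterpart of Snap25, was lower by -0.62 ± 0.17 (adjusted p = 0.0333), and that call was lost without EphB2 High replicate 1 or either EphB2 Low replicate (adjusted p up to 0.15).

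The plasma membrane genes that were higher in EphB2 High cells were Rab13, Stxbp6 and Stxbp4. Rab13, a Rab of tight junction assembly, read 9.66 and 9.82 in EphB2 High, 9.13 and 9.24 in Medium and 8.73 and 8.67 in Low cells. The groups did not overlap, and the difference was 1.04 ± 0.12 (2.06-fold; adjusted p = 0.00183). Stxbp6, or amisyn, which binds syntaxin and holds back fusion, read 8.51 and 8.84 in EphB2 High, 7.98 and 8.50 in Medium and 7.25 and 7.71 in Low cells, higher by 1.20 ± 0.25 (2.29-fold; adjusted p = 0.0127). The fit without EphB2 High replicate 2 (adjusted p = 0.075) or EphB2 Low replicate 1 (0.0559) did not call Stxbp6. Stxbp4, or Synip, a syntaxin-binding protein of insulin-regulated glucose transporter delivery, was higher by 0.94 ± 0.28 (adjusted p = 0.042). It kept its call without EphB2 Low replicate 2 but lost it without each of the 5 others (adjusted p up to 0.189) and with probe sets averaged (0.49; adjusted p = 0.101). The uncalled 7 of this list ranged from -0.59 for Stxbp3 to 0.84 for Stx2. Stxbp3 was called with hybridization as a block (adjusted p = 0.012) and with probe sets averaged (-0.88, adjusted p = 0.0255). Stx11, at 0.56, was called with the block (adjusted p = 0.0435), but its signal is not shown to be above background.

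**Figure D3:**
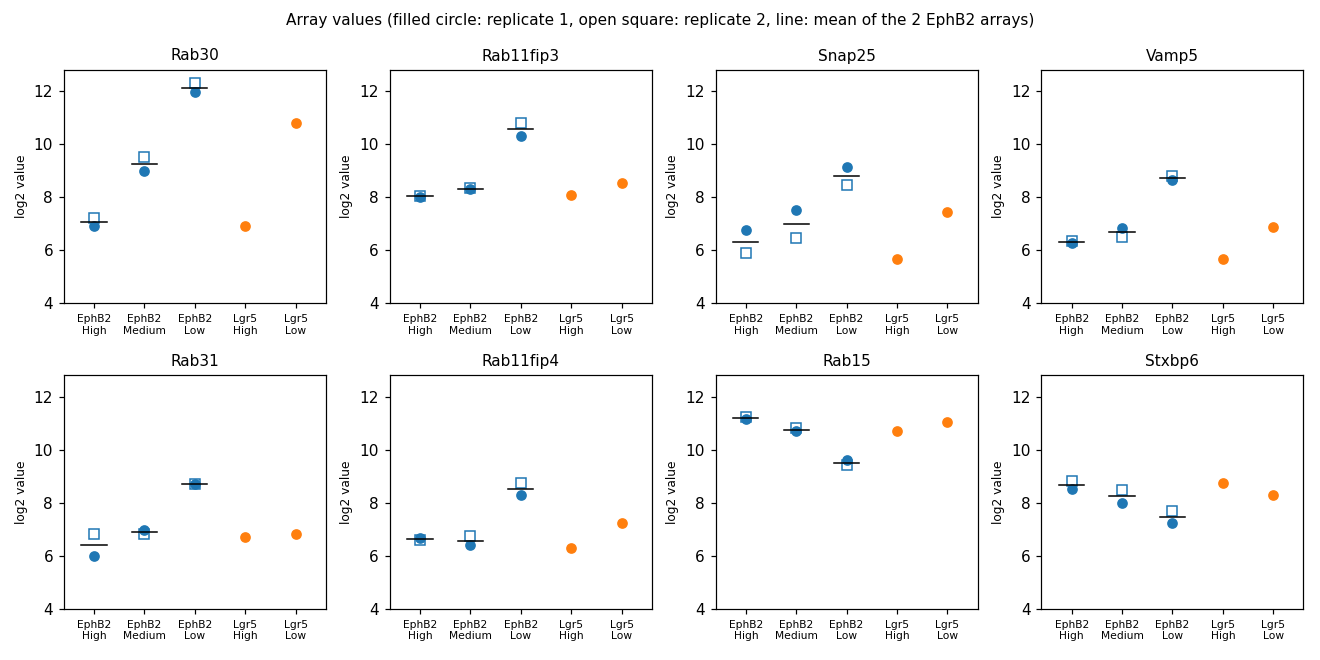
Log2 signal on the 8 arrays for 8 of the members that differed at least 2-fold between EphB2 High and EphB2 Low cells. Points are single arrays and lines the mean of a pair of EphB2 arrays, with EphB2 High left of Medium and Low, followed by Lgr5 High and Lgr5 Low; the Rab30 Medium arrays lie well apart from High and from Low, while Rab11fip3, Rab11fip4 and Vamp5 have Medium arrays close to High.

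The Golgi held the largest difference of all members. Rab30, a Golgi Rab, read 6.92 and 7.21 in EphB2 High cells, 8.98 and 9.50 in EphB2 Medium cells and 11.95 and 12.29 in EphB2 Low cells. The 3 groups were separated by much more than their replicates, and High was lower than Low by -5.06 ± 0.23 (33.3-fold; adjusted p = 0.000184). The size rested on the brightest probe set: a dimmer Rab30 probe set gave -1.49, and the average of both was -3.27. In all, 4 of the 22 endoplasmic reticulum and Golgi members were lower, or 18.2%, near the 15.3% of all genes, and 1 was higher, or 4.55%, against 22.0%, with a median of -0.17.

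The other called members of the early secretory pathway differed less. Stx5a, the syntaxin of transport between the endoplasmic reticulum and Golgi, was lower by -0.64 ± 0.13 (adjusted p = 0.0115, or 0.0725 without EphB2 High replicate 2). Rab6a, of Golgi transport, was lower by -0.68 ± 0.15 (adjusted p = 0.0151) and lost its call without EphB2 High replicate 1 or EphB2 Low replicate 2 (adjusted p up to 0.0824). Rab1b, which acts between the endoplasmic reticulum and Golgi, was lower by -0.61 ± 0.13 (adjusted p = 0.0155), a call lost without EphB2 High replicate 2 or EphB2 Low replicate 1 (adjusted p up to 0.0937). Stx17, a SNARE of autophagosome fusion, was higher by 0.64 ± 0.13 (adjusted p = 0.0124, or 0.0783 without EphB2 High replicate 2), and by 0.40 with probe sets averaged. The uncalled 17 of this list ranged from -0.60 for Rab36 to 0.36 for Stx16, and Rab33b, at -0.35, was called with hybridization as a block (adjusted p = 0.0468).

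Endosome and lysosome genes gave 9 lower (37.5%, against 15.3% of all genes), 0 higher and 15 uncalled members of 24, with 12 below an unadjusted p of 0.05 and a median of -0.24. Rab31, which moves cargo between the trans-Golgi and endosomes, read 6.00 and 6.84 in EphB2 High cells, 6.99 and 6.82 in EphB2 Medium cells and 8.71 and 8.71 in EphB2 Low cells. Low stood apart from overlapping High and Medium arrays, with a High minus Low difference of -2.29 ± 0.27 (4.89-fold lower, adjusted p = 0.002). A dimmer Rab31 probe set gave -1.03. Rab20, a Rab of endosomes and phagosomes, read 7.31 and 7.30 in EphB2 High, 7.72 and 7.79 in Medium and 8.96 and 9.09 in Low cells. Its groups did not overlap, and the difference was -1.72 ± 0.11 (3.30-fold lower; adjusted p = 0.000391).

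Smaller decreases ran along the endosomal pathway. Rab4a, of fast recycling from early endosomes, was lower by -0.99 ± 0.14 (adjusted p = 0.00379). The endosomal syntaxins Stx7 and Stx12 were lower by -0.83 ± 0.13 (adjusted p = 0.00508) and -0.69 ± 0.12 (adjusted p = 0.00604). Snap29, a SNARE of several endosomal and autophagic fusion steps, was lower by -0.70 ± 0.13 (adjusted p = 0.00922, or 0.0584 without EphB2 High replicate 2). A further 3, named here after their values were seen, were Stx8 at -0.56 ± 0.13, Rab5c at -0.59 ± 0.15 and Rab4b at -0.52 ± 0.15. Stx8 lost its call without either second replicate of High and Low (adjusted p up to 0.12), and Rab5c and Rab4b lost theirs without any one of the 4 EphB2 High and Low arrays (up to 0.127 for Rab5c and 0.154 for Rab4b). The late endosome Rab7 and the recycling SNARE Vamp3 gave -0.05 ± 0.10 and -0.20 ± 0.11 and were not called, and the uncalled 15 ranged from -0.35 for Rab5a to 0.45 for Rab29, which was called with hybridization as a block (adjusted p = 0.0469).

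Of the 15 regulators and less characterised genes, 2 were higher (13.3%), 1 was lower (6.67%) and 12 were not called, with a median of 0.03. Rab15, a Rab of endosomal recycling that is prominent in brain, had the largest increase of all members. Rab15 was listed here, so the count of 0 higher endosome and lysosome members leaves it out. It read 11.14 and 11.23 in EphB2 High cells, 10.70 and 10.82 in EphB2 Medium cells and 9.61 and 9.42 in EphB2 Low cells. The groups did not overlap, and the difference was 1.67 ± 0.13 (3.18-fold; adjusted p = 0.000593). Rab3gap2, a subunit of the complex that switches Rab3 off and activates Rab18, was lower by -1.02 ± 0.15 (2.03-fold; adjusted p = 0.00351), while its partner Rab3gap1 gave -0.21 ± 0.13 (adjusted p = 0.276). Rab23, known from hedgehog signalling and cilia, was higher by 0.42 ± 0.12 (adjusted p = 0.0352) but was not called in any fit on 5 arrays (adjusted p up to 0.178), nor with quantile normalization (0.0626) or an intensity trend (0.0903). The uncalled 12 ranged from -0.34 for Rab40b to 0.62 for Rab26os.

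Promoter sequence was examined for all members with a window, since Cdx, HNF4, Gata and Tcf factors are known regulators of intestinal genes. RefSeq windows (GRCm38.p6) matched 85 of the 103 members with 108 windows, and the 250 bases before each start were searched on both strands for the letters of a binding motif of each factor. The CDX letters TTTATNG were in 8.33% of the member windows, against 9.81% of all 32851 windows. The HNF4 letters CAAAGTNCA were in 0.926% of member windows, against 1.19% of all windows. The GATA letters AGATAA were in 2.78% of member windows, against 9.99% of all windows. The TCF letters ATCAAAG were in 1.85% of member windows, against 3.21% of all windows. Among the 24 windows of members called lower, CDX letters were in 2 (8.33%) and HNF4 letters in 1 (4.17%). Among the 14 windows of members called higher, CDX letters were in 2 (14.3%). The other motifs had no match there. With so few windows, no enrichment is read from these shares. The windows of Rab11fip3 are shown because it was the only member with an HNF4 match and was among the most strongly lower members, and one Rab15 window because it had a pair of CDX matches in the member of largest increase; capitals mark the matches, and a match is a description of the letters only. The Rab11fip3 windows lie at chr17:26069519-26069768 and chr17:26021861-26022110 and the Rab15 window at chr12:76818375-76818624, all on the minus strand and each before an annotated start of its gene.
Rab11fip3 upstream start, CDX letters: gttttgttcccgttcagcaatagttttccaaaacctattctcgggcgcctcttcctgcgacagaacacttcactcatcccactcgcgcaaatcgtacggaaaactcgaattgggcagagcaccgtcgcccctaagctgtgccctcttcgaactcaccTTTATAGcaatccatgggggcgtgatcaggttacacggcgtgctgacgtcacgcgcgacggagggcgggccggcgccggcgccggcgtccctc
Rab11fip3 downstream start, HNF4 letters on the other strand: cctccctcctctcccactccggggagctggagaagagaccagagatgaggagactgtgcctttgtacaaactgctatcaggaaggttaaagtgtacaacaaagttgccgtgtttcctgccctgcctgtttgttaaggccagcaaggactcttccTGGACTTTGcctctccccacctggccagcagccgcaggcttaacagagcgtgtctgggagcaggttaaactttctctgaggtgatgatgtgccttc
Rab15, CDX letters: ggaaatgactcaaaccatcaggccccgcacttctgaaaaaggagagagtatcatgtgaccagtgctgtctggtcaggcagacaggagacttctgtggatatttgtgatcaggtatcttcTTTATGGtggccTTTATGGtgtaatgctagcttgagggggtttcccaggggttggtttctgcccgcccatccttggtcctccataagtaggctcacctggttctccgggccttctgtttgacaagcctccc

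The EphB2 Medium cells were compared with EphB2 Low cells in the same fit, sharing the Low arrays with the comparison above. Of the 103 members, 20 were lower in EphB2 Medium cells, against 10.1% of all genes, and 3 were higher, against 14.6% of all genes (24.7% in either direction). With hybridization as a block 5 were higher and 23 lower, the additions being Rab11fip2 and Stxbp6 (higher) and Snap23, Stx7 and Stx12 (lower). The share of all genes called with the block is not given here. Rab11fip3 was lower by -2.24 ± 0.17 (4.71-fold; adjusted p = 0.00233), Rab11fip4 by -1.94 ± 0.20 (3.83-fold; adjusted p = 0.0039) and Vamp5 by -2.05 ± 0.15 (4.13-fold; adjusted p = 0.00201). Rab30 was lower by -2.88 ± 0.23 (7.36-fold; adjusted p = 0.00237), Rab20 by -1.27 ± 0.11 (2.42-fold; adjusted p = 0.00302) and Rab15 was higher by 1.24 ± 0.13 (2.37-fold; adjusted p = 0.0038). These 6 stayed called whichever array was left out.

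Other calls between EphB2 Medium and Low cells depended on single arrays. Rab31, at -1.80 ± 0.27 (adjusted p = 0.00913), lost its call without EphB2 Medium replicate 2 (0.0583), and Stx3, at -1.03 ± 0.18 (adjusted p = 0.0128), and Rab17, at -0.70 ± 0.12 (adjusted p = 0.0115), lost theirs without either EphB2 Medium array. Snap25 was lower in Medium by -1.82 ± 0.46 (adjusted p = 0.0364), a call lost without EphB2 Medium replicate 2 or either EphB2 Low array. Rab37 was lower by -1.13 ± 0.26 (adjusted p = 0.0271), a call that was kept without EphB2 Low replicate 1 and lost without each of the 5 others. Rab13, at 0.48 ± 0.12, and Stx17, at 0.56 ± 0.13, lost theirs whichever array was left out. The 20 lower members numbered 12 without either EphB2 High array, 7 and 5 without EphB2 Medium replicates 1 and 2, and 15 and 8 without EphB2 Low replicates 1 and 2. The fit without EphB2 Low replicate 1 called 3 members higher, and each of the other fits on 5 arrays called 1.

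Between EphB2 High and EphB2 Medium cells, limma called 0 members higher and 1 lower, against 0.214% and 1.15% of all genes (1.36% in either direction), and 13 of the 103 lay below an unadjusted p of 0.05. The 1 was Rab30, lower in High by -2.18 ± 0.23 (4.53-fold; adjusted p = 0.0197), or by -1.12 with its probe sets averaged, and no fit on 5 arrays called it (adjusted p up to 0.116). Rab27a, at -2.01 ± 1.04, and Stxbp4, at 0.99 ± 0.28, were not called (adjusted p = 0.463 and 0.188). Set against the mean of High and Low, EphB2 Medium cells had 0 called members by limma, against 0.0055% of all genes in either direction, and 11 below an unadjusted p of 0.05. Rab11fip4, at -1.00 ± 0.17 (adjusted p = 0.198), and Rab11fip3, at -0.97 ± 0.15 (adjusted p = 0.165), lay below the midpoint of High and Low on both Medium arrays without passing the test.

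The Lgr5 sort had 1 array per group, so its differences have no replicate check and no p-value. Of the 103 members, 6 were at least 2-fold lower on the Lgr5 High array than on the Lgr5 Low array, against 5.07% of all genes, and 0 were at least 2-fold higher, against 2.34% of all genes. The members' median was -0.16, and that of all genes was -0.05. Of the 6, Rab27a, Rab3c, Rab37 and Snap25 were granule genes, Vamp5 was a plasma membrane gene and Rab30 a Golgi gene.

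Granule genes thus held 4 of the 6, or 26.7% of their list against 5.07% of all genes, with a list median of -0.44. Of the 13 apical genes, 0 were 2-fold different, and their median was -0.17. By mean signal over the EphB2 arrays, 5 of the 6 were among the 34 members at or below the median of all genes. These 5 included all 4 granule genes, and only Rab30 lay above that median. Rab27a read 4.84 on Lgr5 High and 7.81 on Lgr5 Low, a difference of -2.97. Rab3c read 5.14 on Lgr5 High and 7.72 on Lgr5 Low, a difference of -2.58, and its next brightest probe sets gave -1.25 and -2.27. For Rab27a the 3 other probe sets were dim and gave -0.46 to -0.90. Averaged over probe sets the difference was -1.20 for Rab27a, -1.38 for Rab3c and -1.26 for Rab37. Rab37 read 4.46 on Lgr5 High and 6.54 on Lgr5 Low, and Snap25 read 5.68 on Lgr5 High and 7.43 on Lgr5 Low. Both were lower, as in EphB2 High against EphB2 Low cells. On Lgr5 High the Rab27a and Rab37 readings lay among the medians of the lymphocyte, myeloid and stromal marker lists. Rab3c, at 5.14, lay just above the lymphocyte marker median of 5.08 on that array. None of these readings is shown to be above background, so the sizes of their differences are uncertain. Rab27b, the bright relative of Rab27a, read 10.98 on Lgr5 High and 11.62 on Lgr5 Low, opposite in sign to its EphB2 difference of 0.47, which was not called. The enteroendocrine marker median was 7.56 on Lgr5 High and 10.12 on Lgr5 Low, and 16 of the 20 markers were at least 2-fold lower on Lgr5 High. Goblet markers had medians of 12.09 on Lgr5 High and 13.68 on Lgr5 Low, with 7 of 11 at least 2-fold lower. Enterocyte markers had medians of 9.14 on Lgr5 High and 12.60 on Lgr5 Low, with 14 of 17 at least 2-fold lower. So were 6 of 10 tuft markers and 1 of 10 Paneth markers. The part of these markers in the granule and apical values was not tested.

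**Figure D4:**
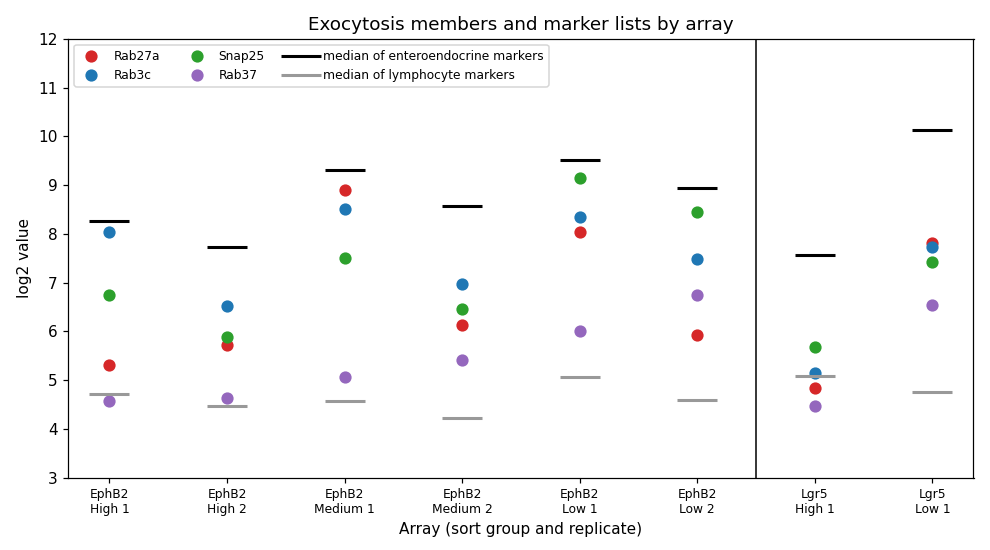
Log2 signal of granule members beside the median of the enteroendocrine markers on the 8 arrays, EphB2 High to Low followed by Lgr5 High and Lgr5 Low. The lymphocyte marker median is drawn in grey. Snap25, Rab27a, Rab3c and Rab37 and the enteroendocrine median are all lower on Lgr5 High than on Lgr5 Low; the enteroendocrine median is 7.56 on Lgr5 High and 10.12 on Lgr5 Low.

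Rab30 again had the largest difference of all members on the Lgr5 arrays, 6.91 on Lgr5 High and 10.81 on Lgr5 Low (-3.90). The apical members Rab17, at 11.11 on Lgr5 High and 11.80 on Lgr5 Low, Rab11a, at 11.09 on Lgr5 High and 11.69 on Lgr5 Low, and Rab8a, at 10.30 on Lgr5 High and 10.82 on Lgr5 Low, differed by -0.69, -0.60 and -0.52. Stx3 differed less, at 10.68 on Lgr5 High and 10.99 on Lgr5 Low. Rab4a (-0.78), Rab3gap2 (-0.67), Stx12 (-0.57), Rab11fip3 (-0.48) and Rab3a (-0.47) were also lower on Lgr5 High. In the other direction the largest differences among brighter members were 0.58 for Rab13, 0.48 for Stxbp6, 0.38 for Rab10os, 0.29 for Rab8b and 0.22 for Rab3ip and Snap47. Several of these sizes turned on the probe set: averaged over probe sets, Rab11fip3 became -0.12, Rab8a -0.30, Rab3gap2 -0.44, Stxbp6 0.21, Rab3ip 0.054, Snap47 0.35 and Rab10os -0.0075. All 27 members called lower in EphB2 High than in Low cells also read lower on Lgr5 High than on Lgr5 Low. Of all genes called lower, 89.6% did so. The smallest of these Lgr5 differences were -0.12 for Rab31 and Snap23, and Rab31 turned to 0.011 with its probe sets averaged. Of the 8 called higher, 6 read higher on Lgr5 High, where 85.2% of all genes called higher did so. The exceptions were Rab15, at 10.72 on Lgr5 High and 11.03 on Lgr5 Low, and Stx17, at 9.41 on Lgr5 High and 9.78 on Lgr5 Low.

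**Figure D5:**
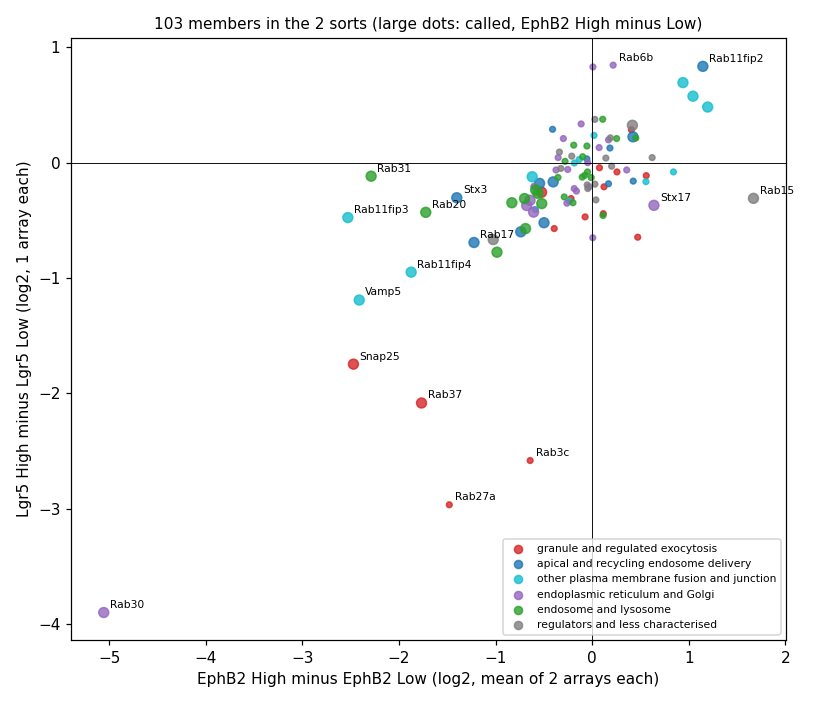
Each of the 103 members by its EphB2 High minus Low difference and its Lgr5 High minus Low difference, both in log2 units. Rab30 lies farthest to the lower left at -5.06 and -3.90, Rab27a and Rab3c are much lower in the Lgr5 sort without a call in the EphB2 sort, and Rab15 lies right of 0 and just below it.

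Partner genes of these pathways came from lists of tethers, motors and cycle proteins, and the shares called were set against 22.0% of all genes higher and 15.3% lower in EphB2 High than in Low cells. Of 23 granule tethering and priming genes, 3 were higher (13.0%) and 5 were lower (21.7%). The calcium sensor Syt7 was lower by -1.74 ± 0.17 (adjusted p = 0.0012) and the Rab27 effector Unc13d by -0.90 ± 0.18 (adjusted p = 0.0102). Sytl1 and Sytl2 were lower by -0.56 ± 0.14 (adjusted p = 0.0239) and -0.71 ± 0.20 (adjusted p = 0.0369). The granule motor Myo5a was higher by 1.44 ± 0.23 (adjusted p = 0.00519), the Rab27 effector Sytl4 by 1.24 ± 0.27 (adjusted p = 0.0148) and Rph3al by 0.65 ± 0.16 (adjusted p = 0.0232). Of 16 apical tethering and motor genes, 2 were higher (12.5%) and 3 were lower (18.8%). Myo5b, the motor of Rab11 vesicles, was lower by -1.50 ± 0.16 (adjusted p = 0.0014), the microvillus linker Ezr by -1.35 ± 0.17 (adjusted p = 0.00224) and its partner Slc9a3r1 by -1.20 ± 0.15 (adjusted p = 0.00235). The 2 higher genes were Exoc4, by 0.57 ± 0.12 (adjusted p = 0.0146), and Myo5c, by 0.69 ± 0.16 (adjusted p = 0.021). Of 27 genes of the Rab and SNARE cycle, 3 were higher (11.1%) and 6 were lower (22.2%), among them Sec22c at -1.32 ± 0.13 (adjusted p = 0.0012) and Napb, an adaptor for SNARE disassembly, at 0.88 ± 0.15 (adjusted p = 0.00699).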

How the data were processed

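Per the submitters' processing notes, the deposited log2 values were made with RMA (background correction, quantile normalization and probe set summary); no version was stated in the sources used here. Array medians lay between 6.12 and 6.20 on the log2 scale. Because RMA gives all arrays nearly the same distribution, differences in the amount of RNA per cell are lost, and the number of arrays limits the precision. Per the labels, 25 ng of Trizol-extracted RNA per sample was amplified isothermally.

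Of 45101 probe sets, 64 controls were left out, 34945 named 1 gene in the platform annotation table, 932 named several and 9160 were unnamed there. The 103 members came from 240 probe sets, 73 members having several. All 103 gene IDs were found in RefSeq and none was renamed. Of the 35 called members, 27 had 42 further probe sets, none with the opposite sign.

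limma (version 3.58.1, R 4.3.3; lmFit, contrasts.fit, eBayes, 2-sided) was fitted to the 6 EphB2 arrays over 18193 genes with group as the only term, leaving 3 residual degrees of freedom. No dim probe set was removed. The Lgr5 arrays, a separate hybridization, were compared by values only. Replicate numbers mark a shared hybridization in the labels and so pair the samples; deviations of same-numbered arrays from their group means correlated across genes at 0.45 (High and Medium), 0.13 (High and Low) and 0.21 (Medium and Low). The fit was tested on simulated data.

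Alternatives were the hybridization as a block, each array left out, a second quantile normalization, a filter on dim genes, the mean of a gene's probe sets and an intensity trend. The members, role lists and marker lists were chosen with earlier results of these data known. Named were all granule and apical members, up to 6 called members per other role with the smallest p, those past 2-fold, the largest called differences per EphB2 comparison and the largest among brighter members in the Lgr5 sort. Other pathway genes were named by smallest p among called ones. Tables and promoter windows were handled with pandas 2.3.3.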

Additional observations from a re-analysis of the deposited data

How the results depend on the processing

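Between EphB2 High and Low cells the 27 lower members numbered 26 to 31 under the processing alternatives, and 18 to 25 when 1 array was left out. The 8 higher members numbered 2 to 8 when 1 array was left out. With hybridization as a replicate block, 11 were higher and 30 lower, and all 35 called members kept their call. No call of a member was lost under the block in any comparison. The shares of all genes called under the alternatives are not given here. Counts in this section show only how far the members' calls held. Between EphB2 Medium and Low cells the 3 higher members became 5 with the replicate block or the dim filter and 1 to 3 with 1 array left out, and the 20 lower became 5 to 15. Between EphB2 High and Medium the dim filter, which tested fewer genes, called 1 higher and 2 lower members, the intensity trend called 2 lower, and leaving out 1 array called 0 lower.

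Several small uncalled differences between EphB2 High and Low cells changed sign. With probe sets averaged, Rab11fip1 became -0.33, Rab8b 0.13, Stxbp5 -0.16 and Stxbp5l -0.84, the last of which was called. With a second quantile normalization Rab11b became 0.0047 and Stxbp5 -0.0047. With 1 array left out, the differences ranged from -0.12 to 0.011 for Rab11b, -0.17 to 0.54 for Rab11fip1, -0.21 to 0.067 for Rab3a, -0.81 to 0.021 for Rab3b, -1.40 to 0.12 for Rab3c, -0.27 to 0.78 for Rab3d, -0.064 to 0.21 for Stxbp5, -0.31 to 0.55 for Stxbp5l and -0.0045 to 0.23 for Vamp1. The cause of these changes was not tested. The Rab26 difference (0.41) and the Rab8b difference (-0.41) were called with the replicate block (adjusted p = 0.0457 and 0.0278). The Rab26 signal is not shown to be above background. Rab3d (0.42) and Vamp2 (-0.37) were called with probe sets averaged. The number of arrays limits the precision of small differences, and 34 of the 103 members lay at or below the median signal of all genes.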
